A study of Danio rerio with 4 samples.

Results

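The genes described here mark the axial midline of the zebrafish embryo, the notochord and the floor plate above it. They are 10 genes chosen by symbol, and all 10 were among the 24235 genes of the deposited table. 7 are regulators, of which 5 encode transcription factors (ta, noto, foxa, foxa2 and foxj1a) and 2 encode Hedgehog ligands (shha and shhb). The other 3 encode collagen chains of the extracellular matrix (col2a1a, col9a1b and col8a1a).

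Whole embryos grown to the 6-somite stage gave 4 RNA libraries, 2 from npas4l bns297/bns297 homozygotes (called npas4l mutants here) and 2 from wild-type AB embryos (WT). npas4l encodes a bHLH-PAS transcription factor without which few endothelial or blood cells develop, and the comparison asks which RNAs depend on it. The labels name neither the background strain of the mutants nor the number of embryos or clutches in a library, so p-values measure only the spread between these libraries, which may be technical. No check of the genotype labels was made from the RNA of npas4l, which was not analysed here. In whole-embryo RNA, fewer cells of a type and less RNA per cell cannot be told apart.

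The notochord is a rod of axial mesoderm that stiffens the embryo and signals to the tissues beside it. T-box, homeobox and forkhead factors set it apart from neighbouring mesoderm. It then secretes Hedgehog proteins, which pattern the neural tube and the adjacent muscle, and builds a sheath rich in collagen. The floor plate, at the ventral midline of the neural tube, shares forkhead factors and Hedgehog ligands with it. Several of these genes are also used elsewhere in the embryo at this stage, foxa2 in endoderm, ta in the tailbud and foxj1a in Kupffer's vesicle, the ciliated organ of left-right asymmetry.

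The values summed to 8237748 and 7272902 in mutant replicates 1 and 2, and to 7984958 and 8101165 in WT replicates 1 and 2. A value is a read count scaled by 1 factor per library and rounded to a whole number by the authors. 1 read was worth 0.983 and 1.01 in the mutant libraries and 1.09 and 0.898 in the WT libraries, as read from the whole numbers that are skipped or doubled. At the members' values, counting error alone was between 3.38% and 15.1% of a value. Mutant replicate 2 was unlike the rest, with 299 genes at 0 against 2444 to 3000, and 19481 genes at a value of 10 or more against 15954 to 16069. Values are not corrected for transcript length, so a difference in value between genes is not read as a difference in transcript number.

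All 10 genes were measured in every library, and their log2 fold changes between mutants and WT lay between -0.35 and 0.07. None passed the test in either direction (0 higher and 0 lower), which was limma-trend on log2(value + 1) with Benjamini-Hochberg adjustment over the 16653 genes whose values averaged 10 or more. Each member had an adjusted p of 1. Of all genes, 8 passed, which is 0.048% of those tested. 0 of the 10 members had an unadjusted p under 0.05, where 3.75% of all genes tested did, and limma-voom also called 0. The smallest unadjusted limma p among the members was 0.132, that of ta.

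**Figure D1:**
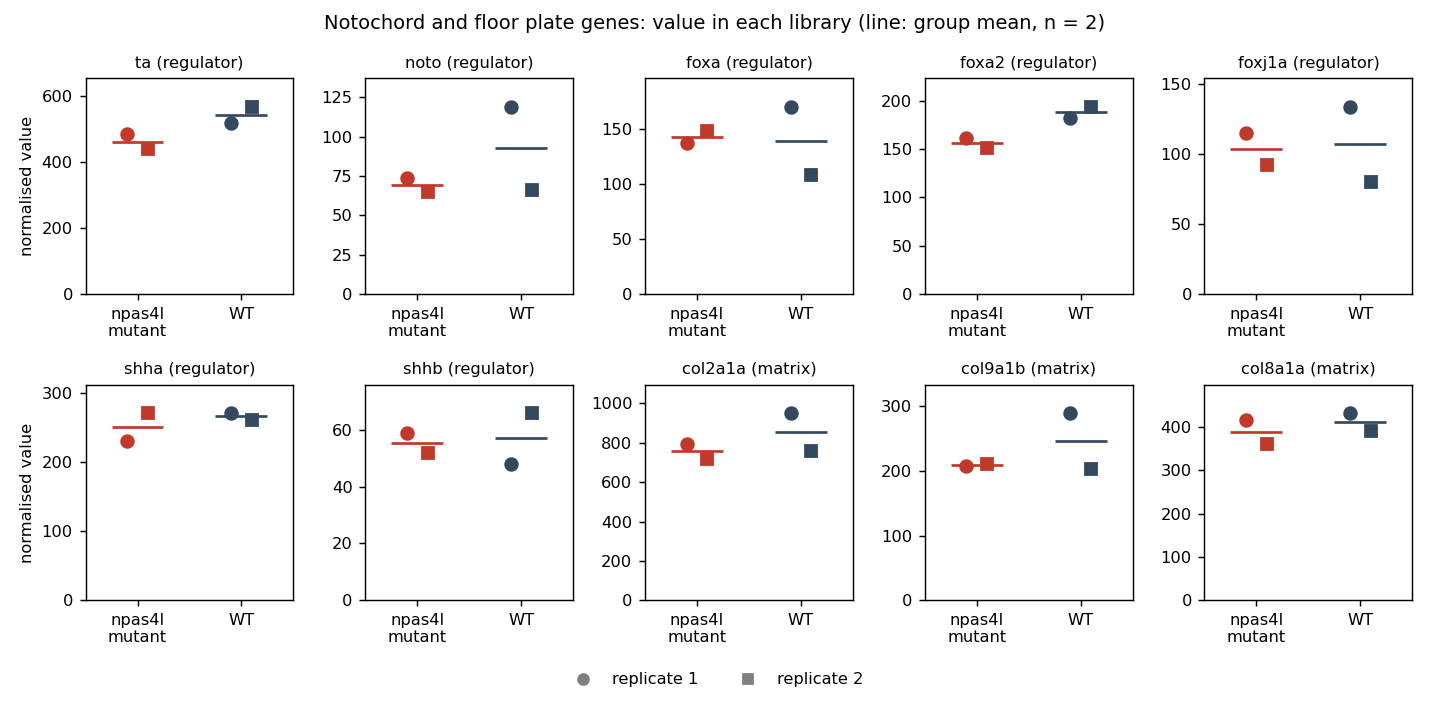
Normalised value (vertical axis, from 0) of each of the 10 genes in the npas4l mutant libraries (red, left) and the WT libraries (dark, right), with replicate 1 as a circle, replicate 2 as a square and the mean of 2 libraries as a line. The groups are apart for ta and foxa2, while WT replicate 1 stands above the other 3 libraries for noto, foxa, foxj1a, col2a1a, col9a1b and, by less, col8a1a.

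ta, the zebrafish Brachyury gene known as no tail, encodes the T-box factor needed for the notochord and the posterior mesoderm. It lies on chromosome 19 from 14325345 to 14329397 on the minus strand (GRCz10, as are all positions given here; ENSDARG00000101576). Its values were 483 and 439 in mutants against 517 and 567 in WT. Both mutant libraries lay below both WT libraries, and the group means were 461 ± 31.1 in mutants and 542 ± 35.4 in WT (SD, n = 2 per genotype, as throughout). Its log2 fold change was -0.23 ± 0.15 (SE), with a 95% interval of -0.54 to 0.07.

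noto, or floating head, encodes a homeobox factor that keeps axial mesoderm from taking a muscle fate (chromosome 13, 14845116 to 14847112, plus strand; ENSDARG00000021201). It stood at 74 and 65 in mutants against 119 and 66 in WT. WT replicate 1 was the one high library, and WT replicate 2 lay among the mutants, so the groups overlapped. The log2 fold change of -0.35 ± 0.29 was the furthest from 0 of the 10 genes, and its interval was -0.93 to 0.23. Without WT replicate 1 it was 0.07, and without WT replicate 2 it was -0.77 at an unadjusted limma p of 0.0401 and an adjusted p of 1.

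foxa2, the forkhead factor of axial mesoderm, floor plate and endoderm (chromosome 17, 42290549 to 42293188, minus strand; ENSDARG00000003411), had values of 161 and 151 in mutants against 182 and 194 in WT. As for ta, both mutant libraries were lower than both WT libraries. The means were 156 ± 7.07 in mutants and 188 ± 8.49 in WT, and the log2 fold change was -0.27 ± 0.20 with an interval of -0.67 to 0.14. ta and foxa2 were the 2 of 10 members whose groups did not overlap, and in 0 members did both mutant libraries lie above both WT libraries. Over all genes tested, 13.3% had the mutants above and 16.1% had them below. Among the 10576 genes that averaged 50 or more, as every member did, 20.3% had the mutants below. The share among the members, 2 of 10, is close to that background.

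foxa, a forkhead gene of the same family (chromosome 14, 33632832 to 33641230, minus strand; ENSDARG00000087094), stood at 137 and 148 in mutants against 170 and 108 in WT. Both mutant libraries lay between the 2 WT libraries. Its log2 fold change, 0.07 ± 0.23 with an interval of -0.38 to 0.52, was the only positive one. It was 0.40 without WT replicate 1 and -0.25 without WT replicate 2.

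foxj1a encodes the forkhead factor that switches on the genes of motile cilia, in the floor plate and in Kupffer's vesicle (chromosome 3, 60637106 to 60838792, plus strand; ENSDARG00000101919). It had values of 115 and 92 in mutants against 134 and 80 in WT, again with the mutants between the WT libraries. The fitted change was -0.01 ± 0.26 with an interval of -0.52 to 0.50. Its sign has no weight, since it was positive with upper-quartile scaling, with scaling to totals without mitochondrial and ribosomal RNA, and with limma-voom. The annotated span of 201687 bases holds helz on the same strand and cacng1b on the other. helz had values of 998 and 872 in mutants and 1077 and 999 in WT, well above those of foxj1a, and the labels do not say how reads in shared stretches were assigned. The values of foxj1a are therefore less certain than those of the other 9 members, which overlap no other gene of the table.

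shha encodes Sonic hedgehog, the main midline ligand (chromosome 7, 40603939 to 40613222, plus strand; ENSDARG00000068567). It stood at 231 and 271 in mutants against 272 and 262 in WT. The groups overlapped, mutant replicate 1 being the low library, and the fitted log2 fold change was -0.09 ± 0.18, with an interval of -0.45 to 0.26.

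shhb encodes the second Sonic hedgehog of zebrafish, tiggy-winkle hedgehog (chromosome 2, 30067008 to 30071899, minus strand; ENSDARG00000038867), and had the lowest values of the 10 genes. They were 59 and 52 in mutants against 48 and 66 in WT, with both mutant libraries inside the range of the WT libraries. This gave a log2 fold change of -0.02 ± 0.34 with an interval of -0.70 to 0.65, whose sign turned under the same 3 settings as that of foxj1a. The ratio of shha to shhb values was 3.92 and 5.21 in mutants against 5.67 and 3.97 in WT, so it varied as much between libraries of a genotype as between genotypes.

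col2a1a encodes the chain of type II collagen, the fibril-forming collagen of the notochord sheath (chromosome 8, 21163335 to 21187388, plus strand; ENSDARG00000069093). Its values were 795 and 717 in mutants against 953 and 761 in WT. Mutant replicate 1 lay above WT replicate 2, so the groups overlapped. The means were 756 ± 55.2 in mutants and 857 ± 136 in WT, and the log2 fold change was -0.17 ± 0.15 with an interval of -0.46 to 0.11. Without WT replicate 1 the difference was -0.01.

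col9a1b encodes a chain of type IX collagen, which coats type II fibrils (chromosome 13, 38993570 to 39046663, minus strand; ENSDARG00000031483). It had 208 and 210 in mutants against 290 and 203 in WT. 3 libraries were alike and WT replicate 1 was higher. The log2 fold change of -0.21 ± 0.19, with an interval of -0.59 to 0.16, was 0.04 without that library.

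col8a1a encodes a chain of the network-forming type VIII collagen, which is needed for a straight notochord in zebrafish (chromosome 9, 30279910 to 30292032, plus strand; ENSDARG00000077403). It stood at 416 and 361 in mutants against 433 and 391 in WT. The groups overlapped, and the difference between the mutant libraries was larger than that between the genotypes. On the log2 scale the change was -0.09 ± 0.16, with an interval of -0.41 to 0.23.

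**Figure D2:**
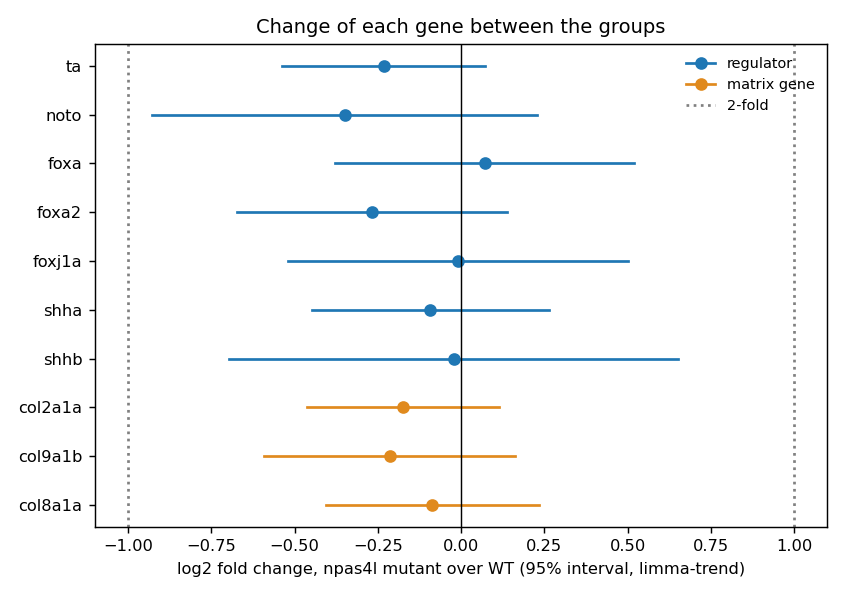
log2 fold change of npas4l mutants over WT (horizontal axis) for each of the 10 genes, regulators in blue and matrix genes in orange, with the 95% interval from limma-trend. Every interval includes 0, and all lie inside the dotted lines that mark 2-fold changes, from -0.93 at the low end (noto) to 0.65 at the high end (shhb).

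As folds, the intervals of the 10 genes ran from 0.526 (the low bound of noto) to 1.57 (the high bound of shhb). A 2-fold difference in either direction was outside each of them in this fit of all 4 libraries. These intervals lean on a spread pooled over similarly expressed genes, to which limma gave 83.6 degrees of freedom, against the 2 that the 4 libraries give. For 5 of the 10 members, noto, foxa, foxj1a, col2a1a and col9a1b, the standard error from the gene's own 4 values was larger than the pooled one. For noto the gene's own value was 0.43 against the pooled 0.29, and for foxj1a 0.40 against 0.26. Intervals from the genes' own values alone were not computed, so the 2-fold limit holds only with the pooled spread.

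9 of the 10 members had a negative log2 fold change, and the median of the 10 was -0.13. The 9 include foxj1a at -0.01 and shhb at -0.02, whose signs turned with upper-quartile scaling and with limma-voom. Among the genes that averaged 50 or more, 62.3% were negative and the median was -0.05. Over all genes tested 52.7% were negative, with a median of -0.02, which became 0.03 with upper-quartile scaling. Measured from each gene's own mean over the 4 libraries on the log2 scale, the median of the genes that averaged 50 or more was 0.04 and -0.09 in mutant replicates 1 and 2, against 0.03 and 0.03 in WT.

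The regulators and the matrix genes were then set side by side. 6 of the 7 regulators and 3 of the 3 matrix genes had a negative log2 fold change. Among the 6 are foxj1a and shhb, whose signs depended on the scaling. The median was -0.09 over the regulators, with a range of -0.35 to 0.07, and -0.17 over the matrix genes, with a range of -0.21 to -0.09. Matrix minus regulators was -0.08, and the range of the matrix genes lay wholly within that of the regulators. No p is given for a score over genes that were chosen with earlier results known.

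Within each library, every gene was also measured from its own mean over the 4 libraries on the log2 scale. The median regulator stood at -0.05 and -0.16 in mutant replicates 1 and 2 and at 0.09 and 0.02 in WT replicates 1 and 2. The median matrix gene stood at -0.01 and -0.15 in mutants and at 0.25 and -0.08 in WT. Matrix minus regulators was therefore 0.04 and 0.02 in the mutant libraries, inside the range of the WT libraries, 0.16 and -0.09. Matrix genes and regulators did not part between the genotypes by more than they did between the WT libraries. Without WT replicate 1 the matrix genes lay 0.05 above the regulators in log2 fold change, and without mutant replicate 2 by 0.07.

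**Figure D3:**
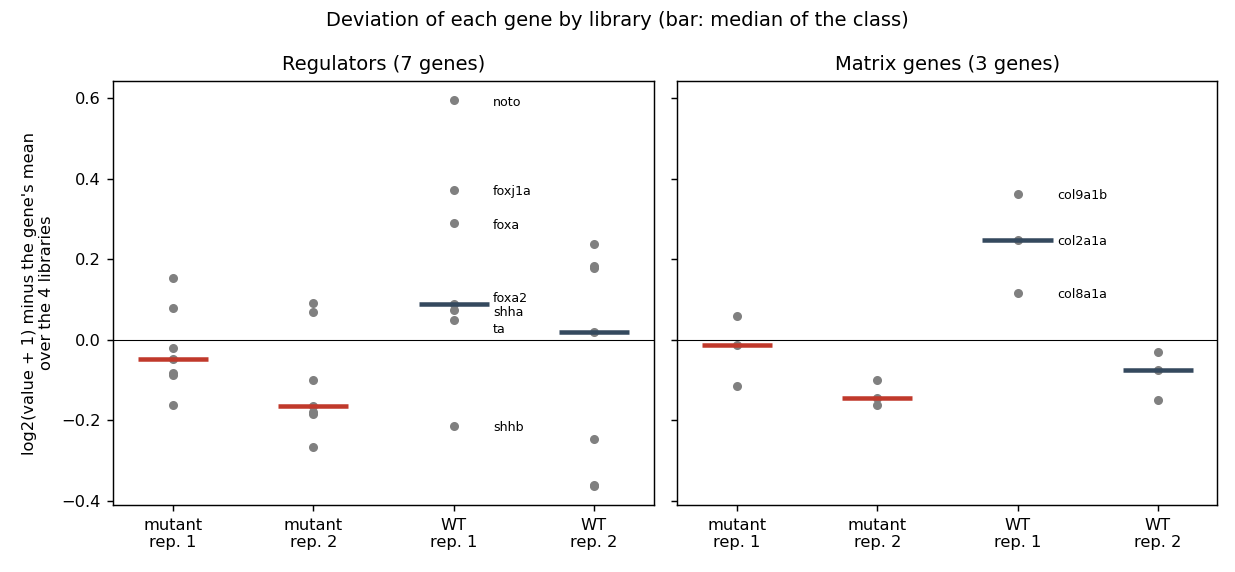
log2(value + 1) of each gene minus its mean over the 4 libraries (vertical axis), for 7 regulators (left) and 3 matrix genes (right), with mutant replicates 1 and 2 followed by WT replicates 1 and 2 on the horizontal axis and the median of the class as a bar. The widest separation is between the WT libraries, with noto at 0.60 in WT replicate 1 and -0.25 in WT replicate 2, and all 3 matrix genes above 0 in WT replicate 1 and below 0 in WT replicate 2.

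The largest differences in this gene group were within the wild type. In WT replicate 1 noto was 1.79-fold, foxj1a 1.67-fold, foxa 1.57-fold and col9a1b 1.43-fold of WT replicate 2 on the log2(value + 1) scale, and col2a1a was higher by 0.32 in log2. A difference at least this large between the WT libraries was found in 6.24%, 5.53%, 5.29%, 4.74% and 2.42% of genes whose mean value lay within 1.5 times that of the member, in the same order. The remaining 5 members had differences that 37.4% to 81.9% of such genes matched. Between the mutant libraries 0 of the 10 members stood out in this way, the rarest difference being matched by 39.2% of similar genes. Percentages from mutants and WT are not like for like, since the mutant libraries correlated at 0.941 and the WT libraries at 0.959. Across genotypes, mutant replicate 1 correlated at 0.960 and 0.967 with WT replicates 1 and 2, and mutant replicate 2 at 0.937 and 0.944. By these correlations the libraries did not group by genotype. For ta, replicate 1 minus replicate 2 was 0.14 in mutants and -0.13 in WT in log2. Differences of these sizes were matched by 60.5% and 44.1% of similar genes.

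For 7 of the 10 members the gap between the WT libraries was larger than the change between the genotypes, as it was in 57.5% of the genes that averaged 50 or more. WT replicate 1 was the higher WT library for 7 members, where 49.6% of those genes had it higher. The exceptions were ta, foxa2 and shhb. The 2 members with groups apart, ta and foxa2, were thus also among those in which WT replicate 2 was the higher library.

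The genes with the profile most like that of ta over the 4 libraries, by Euclidean distance of centred log2 values among 10576 genes, were CU459186.2, si:ch211-283h6.4 and raf1b. raf1b, at a distance of 0.0192, had values of 346 and 319 in mutants against 376 and 413 in WT. Those most like col2a1a were rhot2, taf11 and acadvl. rhot2, at a distance of 0.0296, had 111 and 102 in mutants against 134 and 109 in WT. A profile over 4 libraries carries little.

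The rest of the Hedgehog pathway was measured as a list of 20 genes beside shha and shhb, 19 of which were tested. None passed (0 higher, 0 lower, and 0 at an unadjusted p under 0.05). The median log2 fold change was -0.07. The other ligands were low, with ihha at 27 and 23 in mutants against 15 and 9 in WT. ihhb stood at 14 and 25 in mutants against 15 and 24 in WT, and dhh at 0 and 6 in mutants against 0 and 2 in WT. For 7 of the 19 genes both mutant libraries lay below both WT libraries. Among them were the Hedgehog-binding protein gene hhip, the ligand-release factor gene scube2, gli2a, gli2b and the inhibitor gene sufu. The share was 16.1% over all genes tested and 20.3% over those that averaged 50 or more, which ihha and some other genes of this list did not.

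The pathway's transcription factors also did not pass. gli2b had 1306 and 1167 in mutants against 1405 and 1448 in WT, with a log2 fold change of -0.21 ± 0.14, and gli2a had 1003 and 890 against 1126 and 1127, with -0.25 ± 0.14. gli1, a Gli activator that is itself a Hedgehog target, was at 659 and 650 in mutants against 604 and 651 in WT. Its log2 fold change was 0.06 ± 0.15, whereas 13 of the 19 genes tested had a negative one, so gli1 does not stand for the list. hhip, with its groups apart, had 533 and 425 in mutants against 543 and 593 in WT, a change of -0.25 ± 0.15. In smo, the signal-transducing receptor, the change was 0.01 ± 0.14.

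Of 9 genes that Hedgehog patterns in the neural tube and the adaxial muscle, 8 were tested and none passed (0 in each direction, 0 at an unadjusted p under 0.05). Their median was -0.02. prdm1a, a factor of slow muscle precursors and neural crest, had 626 and 593 in mutants against 705 and 642 in WT. myod1, the myogenic factor first active in adaxial cells, had 225 and 241 in mutants against 253 and 249 in WT, and nkx6.2, a ventral neural factor, 208 and 201 against 218 and 190. The changes of these 3 genes were -0.14 ± 0.15, -0.11 ± 0.18 and 0.01 ± 0.19.

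Among 12 other regulators of axial mesoderm, all tested, 0 passed and 1 had an unadjusted limma p under 0.05. This was gsc, the homeobox gene goosecoid of the prechordal plate, at 45 and 26 in mutants against 7 and 11 in WT, with a log2 fold change of 1.85 ± 0.72 and an adjusted p of 1. Both mutant libraries were higher, at values where counting error is large. The list's median was 0.05. sox9b, a Sox factor of cartilage and neural crest, had 766 and 650 in mutants against 670 and 776 in WT. chd, the Bmp antagonist chordin, had 540 and 469 against 571 and 512, and foxa3, another forkhead factor of the family, 264 and 216 against 267 and 255. In none of these 3 was the change more than 1 SE from 0. The second zebrafish Brachyury gene, tb, had 62 and 60 in mutants against 41 and 48 in WT, a change of 0.45 ± 0.35, against -0.23 for ta.

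Of 9 other floor plate genes 8 were tested, 0 passed and the median was -0.05. sulf1, a sulfatase that trims heparan sulfate in the extracellular space, was the 1 gene at an unadjusted limma p under 0.05 (0.0408; adjusted p 1). It stood at 1091 and 1029 in mutants against 1382 and 1212 in WT, with a log2 fold change of -0.29 ± 0.14. ntn1a, the axon guidance cue Netrin 1a, had 357 and 410 in mutants against 408 and 349 in WT. sulf2a, a second sulfatase, had 132 and 91 in mutants against 128 and 163 in WT, with overlapping groups. scospondin, a secreted floor plate glycoprotein gene, had 57 and 153 in mutants against 83 and 47 in WT. Its log2 fold change was 0.57 ± 0.31, and 1.28 when mutant replicate 1 was left out. That fit rests on mutant replicate 2, the library unlike the rest, as the only mutant library. scospondin passed as higher there and not under the other 12 alternatives.

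The matrix beyond the 3 collagens was covered by 41 table rows of notochord sheath and basement membrane genes, of which 35 were tested. 0 passed, 0 had an unadjusted p under 0.05 and the median was -0.06. The laminin chains lama1, lamb1a and lamc1, which surround the notochord and are needed for it to differentiate, had the highest values of the list. lama1 had 8890 and 7881 in mutants against 8658 and 8826 in WT, lamb1a 4466 and 3799 against 4374 and 4289, and lamc1 5536 and 4743 against 5500 and 5721. Mutant replicate 2 was the lowest library in each, and their changes were -0.06 ± 0.16, -0.07 ± 0.14 and -0.13 ± 0.15. Without mutant replicate 1 the change of lamc1 was -0.24, and it passed as lower with mutant replicate 2 as the only mutant library. acana, an aggrecan gene, had the largest fitted change of the list, 2.49 ± 2.26, from 1 and 62 in mutants against 0 and 3 in WT, so it rested on mutant replicate 2.

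Collagen needs a set of enzymes and carriers to be folded and exported. Of 27 such genes with a row, 26 were tested and 0 passed, with 0 at an unadjusted p under 0.05 and a median of -0.09. p4hb, a subunit of the enzyme that hydroxylates collagen prolines, had 1682 and 1770 in mutants against 1812 and 1850 in WT. mia3, which loads bulky cargo into vesicles, had 1840 and 1613 against 1713 and 1753, and sec31a, a coat protein of those vesicles, 1331 and 1172 against 1165 and 1389. Their changes were -0.09 ± 0.14, -0.01 ± 0.14 and -0.03 ± 0.14. For 9 of the 26 genes both mutant libraries lay below both WT libraries, again beside 20.3% of genes that averaged 50 or more.

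Motile cilium genes, the class that Foxj1 factors control, were mostly low, with a median value of 50.5. Of 17 tested 0 passed, 0 had an unadjusted p under 0.05 and the median change was 0.11. rfx2, a ciliary transcription factor, had 429 and 396 in mutants against 456 and 418 in WT. gas8, of the regulatory complex of the axoneme, had 279 and 265 against 225 and 243, a change of 0.22 ± 0.18.

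**Figure D4:**
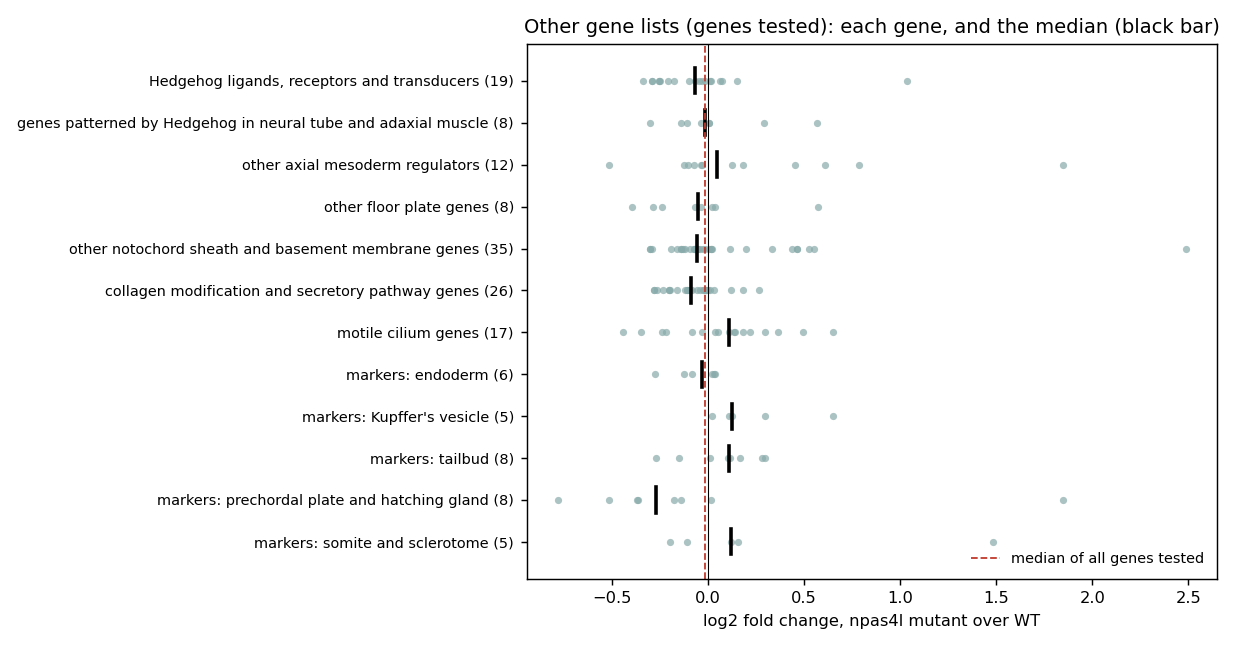
log2 fold change of npas4l mutants over WT (horizontal axis) for each tested gene of 12 lists (rows, with the number of genes tested), with the median of the list as a black bar and the median of all genes tested as a dashed line. List medians lie between -0.27 (prechordal plate and hatching gland) and 0.13 (Kupffer's vesicle), and the lone points beyond 1 are low genes such as acana and gsc.

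Markers of other places where the members are used were read beside them, and their part in the values of the members was not tested. The 8 tailbud markers in the table summed to 5253 and 4508 in mutants against 4676 and 5288 in WT, and the median change of the 8 was 0.11. Only 2 of the 8, tbx6 and tbx16, had a negative log2 fold change, so tbx6 does not stand for the list. tbx6, a T-box gene of the tailbud mesoderm, had 1323 and 1137 in mutants against 1435 and 1527 in WT, a change of -0.27 ± 0.14 that did not pass. tbx16, a further T-box gene there, had 735 and 652 in mutants against 725 and 815 in WT, and cdx4, a caudal homeobox gene, 1521 and 1267 against 1182 and 1409. Without mutant replicate 1 the change of tbx6 was -0.38, and it passed as lower with mutant replicate 2 as the only mutant library.

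The 7 endoderm markers summed to 1305 and 1078 in mutants against 1213 and 1312 in WT, with a median change of -0.03 over the 6 tested. sox17 stood at 7 and 24 in mutants and at 12 and 14 in WT, and sox32 at 2 and 11 in mutants and at 0 and 4 in WT, so the defining endoderm factors were near the floor. gata5, a zinc-finger factor shared with heart precursors, had 323 and 289 in mutants against 362 and 379 in WT. Its relative gata6 had 519 and 378 in mutants against 414 and 452 in WT.

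The 6 Kupffer's vesicle markers summed to 426 and 465 in mutants against 381 and 368 in WT, with a median change of 0.13 over the 5 tested. foxj1b, the paralogue of foxj1a, had 59 and 47 in mutants against 58 and 40 in WT. Like foxj1a it was higher in WT replicate 1 than in WT replicate 2. This held for 3 of the 5 markers tested, while pkd2 and sox17 were lower in WT replicate 1. pkd2, a ciliary calcium channel, had 274 and 237 against 216 and 259, and dnah9, a dynein heavy chain, 32 and 96 against 49 and 25.

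The prechordal plate and hatching gland list, from the mesoderm in front of the notochord, had 8 table rows, which summed to 2059 and 1582 in mutants against 1987 and 2093 in WT. The median change was -0.27, the lowest of the 12 lists, with 0 genes past the test, 1 higher and 2 lower at an unadjusted p under 0.05. klf17, a hatching gland factor, had 524 and 398 in mutants against 466 and 572 in WT. ctslb, a cathepsin with near-identical neighbours, had 2 rows. One row had 461 and 269 in mutants against 353 and 345 in WT, a change of 0.01 ± 0.17. The other had 66 and 42 in mutants against 66 and 126 in WT, a change of -0.78 ± 0.31 (unadjusted limma p 0.0144). he1a, a hatching enzyme gene that overlaps he1b, had 137 and 81 in mutants against 139 and 164 in WT, a change of -0.51 ± 0.24 (unadjusted limma p 0.0321). These last 2 rows are the lower ones in that count, and gsc, described above, is the higher one. The mutant libraries differed from each other by a median of 0.55 in this list, replicate 1 being higher.

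The somite and sclerotome markers summed to 1413 and 1336 in mutants against 1413 and 1436 in WT. Of the 5 tested 0 passed, and the median change was 0.12. meox1, a somite homeobox gene, had 661 and 590 in mutants against 693 and 739 in WT, and foxc1a, a forkhead gene of paraxial mesoderm, 394 and 364 against 344 and 336. The number of genes with groups apart differed between the lists in both directions. Both mutant libraries lay above both WT libraries in 5 of 12 other axial mesoderm regulators and below in 0, and above in 5 of 17 motile cilium genes and below in 2, where 13.3% of all genes tested lay above and 16.1% below. In the other direction 1 of 19 Hedgehog genes and 1 of 26 collagen modification genes lay above, beside the 7 and 9 below. In the remaining 8 lists, with 5 to 35 genes tested, 0 to 3 genes lay above and 0 to 3 below. Of the somite and sclerotome markers 2 of 5 lay above and 2 of 5 below. Below were also 3 of 8 Hedgehog-patterned genes and 3 of 8 prechordal plate and hatching gland rows, with 1 above in each list. Of the 35 sheath and basement membrane genes 3 lay above and 2 below. Over the 12 lists, 149 genes that are not members were tested and 0 passed, with 1 higher and 3 lower at an unadjusted limma p under 0.05.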

How the data were processed

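The authors deposited a score for each gene in each library. The whole numbers skip or double at regular steps, as counts do once they are scaled per library and rounded, so they are not raw counts. Raw counts could not be recovered exactly. Per the submitters' processing notes, FastQC, STAR 2.4.0a, featureCounts 1.4.5-p1 and DESeq2 were used with builds danRer10 and GRCz10. No settings are named there.

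Values were compared as log2(value + 1) with limma-trend (limma 3.58.1 in R 4.3.3) and no covariate beside genotype, over genes averaging 10 or more, at an adjusted p under 0.05. The pseudocount understates the change of low genes. List genes were found by their deposited symbol, or else through the symbol now paired with the same gene ID. The members and lists were chosen with earlier results of these data known. Genes named from a list are the 3 with the highest mean value, 1 of which is not reported here. Other list genes (gsc, tb, ihha, ihhb, dhh, hhip, scube2, sufu, gli1, smo, acana, scospondin, he1a, sox17, sox32) were chosen after their values were seen. Alternatives were other filters, pseudocounts, scalings, limma-voom, a replicate block and each library left out. The code was tested on simulated data. Python 3.11.15, pandas 2.3.3 and Matplotlib 3.10.9 were used.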

Additional observations from a re-analysis of the deposited data

How the results depend on the processing

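Of 130 values of the 10 members under 13 alternatives each, 115 kept their direction, 15 turned and 0 passed the test. The lowest unadjusted p was 0.0401 and the lowest adjusted p 0.409. foxj1a and shhb turned to 0.041 and 0.028 with upper-quartile scaling, to 0.044 and 0.031 with totals without mitochondrial and ribosomal RNA, and to 0.059 and 0.035 with limma-voom. Leaving out each library in turn, with genes tied in the remaining pair left out of the fit, the log2 fold changes ran from -0.77 to 0.071 (noto), -0.25 to 0.40 (foxa), -0.38 to 0.36 (foxj1a), -0.21 to 0.022 (shha), -0.25 to 0.20 (shhb), -0.47 to 0.042 (col9a1b) and -0.19 to 0.016 (col8a1a). Those of ta, foxa2 and col2a1a stayed negative, from -0.30 to -0.16, from -0.31 to -0.22 and from -0.34 to -0.011. In these leave-out fits the median ran from -0.22 to -0.066 over the regulators and from -0.34 to -0.011 over the matrix genes. Matrix minus regulators ran from -0.11 to 0.065. With upper-quartile scaling the median was -0.042 over the regulators and -0.12 over the matrix genes. It was -0.039 and -0.12 with totals without mitochondrial and ribosomal RNA, and -0.047 and -0.11 with limma-voom. Quantile normalization put matrix minus regulators at -0.0021.

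In the whole table, 14 genes passed with upper-quartile scaling (2 higher, 12 lower) and 15 with totals without mitochondrial and ribosomal RNA (2 higher, 13 lower). 2 were higher under quantile normalization, and 2 when only genes averaging 50 or more were tested. With each library left out 6 to 274 genes passed, 2 to 26 higher and 4 to 248 lower, and of the list genes 0 to 3. The highest counts came without mutant replicate 1, where tbx6 and lamc1 passed as lower and scospondin as higher. That fit rests on mutant replicate 2, the library unlike the rest, as the only mutant library, and the cause was not tested. A genotype left with 1 library gave no spread, so the spread came from the pair of the other genotype. Without mutant replicate 1, limma pooled that spread wholly over similarly expressed genes. A gene's own WT pair then had no weight in its standard error. The replicate block called 9 genes and 0 members. Differences between replicates 1 and 2 in mutants and in WT correlated at 0.009 over 16653 genes, so the numbers showed no pairing. Depth limits shhb most, whose counting error was up to 15.1%.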
